A study of Mus musculus with 4 samples.

Results

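Genes of glycolysis and glucose transport were examined in mouse embryonic stem cells (mESCs) with and without SNF2L, a chromatin remodeling ATPase of the ISWI type that Smarca1 encodes. The set holds 38 genes for glucose and lactate transporters, the enzymes that convert glucose to pyruvate and lactate, the entry of pyruvate into mitochondria, glycogen turnover and the pentose phosphate branch, with the kinases that regulate these steps. The members were chosen by their function and on the knockout over WT differences that had already been measured in these libraries. Counts of members that passed the test, and their medians, are therefore a description of the set and no independent evidence that the pathway changed. All 38 genes were found among the 24594 genes of the count table, and all 38 were among the 13840 genes that passed the filter on low counts and were tested.

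Poly(A) RNA was sequenced from untreated mESCs of the 129S6/SvEvTac line in 4 libraries. Of these, 2 came from wild-type cells (WT) and 2 from Snf2l knock-out cells, and the labels describe duplicates of a single batch. Both genotypes share the line and the absence of treatment, and the study's methods describe culture in medium with serum and leukemia inhibitory factor on gelatin. According to these methods a single Cas9-edited clone represents each deletion, so that the loss of SNF2L and other properties of the clone cannot be told apart. The 2 libraries of a genotype measure the spread between libraries of the same line, and no second clone was analysed here.

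Glycolysis takes up glucose through facilitative transporters of the cell membrane, traps it by phosphorylation and splits it into trioses, from which ATP, NADH and pyruvate are made. Pyruvate then either is reduced to lactate, which leaves the cell with a proton through monocarboxylate transporters, or enters the mitochondria, where the pyruvate dehydrogenase complex converts it to acetyl-CoA. Intermediates are diverted into glycogen and into the pentose phosphate pathway, which supplies NADPH and ribose. Pluripotent stem cells are known for a high rate of glycolysis also when oxygen is present. Many of the enzymes have several isozymes, and many of their genes are textbook targets of the hypoxia-inducible factors (HIFs) and of MYC.

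HIFs bind a short core, ACGTG or GCGTG, in the promoters of several of these genes. The sequences below are shown because they stand directly in front of the annotated start of the 5 genes with the largest rise among those that passed the test and had a single promoter window. Each holds the 220 bases upstream of the start site, 5′ to 3′ on the strand of the gene, taken from the RefSeq annotation of GRCm38.p6, and capitals mark each core on either strand (CACGT and CACGC are ACGTG and GCGTG read on the other strand).
Pgm1: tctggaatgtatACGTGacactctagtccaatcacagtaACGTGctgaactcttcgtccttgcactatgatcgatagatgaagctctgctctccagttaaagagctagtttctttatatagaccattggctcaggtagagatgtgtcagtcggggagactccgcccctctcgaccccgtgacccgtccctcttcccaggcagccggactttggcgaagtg
Tpi1: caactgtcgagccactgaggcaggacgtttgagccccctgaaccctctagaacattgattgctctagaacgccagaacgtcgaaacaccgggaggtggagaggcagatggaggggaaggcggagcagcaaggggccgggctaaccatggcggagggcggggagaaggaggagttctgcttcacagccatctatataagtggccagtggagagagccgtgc
Gys1: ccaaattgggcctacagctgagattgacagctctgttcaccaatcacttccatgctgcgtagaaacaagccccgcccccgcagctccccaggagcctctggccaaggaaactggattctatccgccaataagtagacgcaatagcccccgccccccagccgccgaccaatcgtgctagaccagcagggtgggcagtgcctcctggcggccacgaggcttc
Slc2a1: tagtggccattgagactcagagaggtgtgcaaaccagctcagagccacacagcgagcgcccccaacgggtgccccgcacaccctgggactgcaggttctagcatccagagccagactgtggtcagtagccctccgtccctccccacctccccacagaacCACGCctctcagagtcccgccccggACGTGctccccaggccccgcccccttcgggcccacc
Pgk1: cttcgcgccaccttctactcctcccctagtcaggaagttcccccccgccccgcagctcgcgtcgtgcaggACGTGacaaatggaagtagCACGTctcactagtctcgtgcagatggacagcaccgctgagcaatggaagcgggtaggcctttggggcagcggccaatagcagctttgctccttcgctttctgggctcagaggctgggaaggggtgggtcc

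The Pgm1 stretch lies at chr4:99929231-99929450 on the plus strand and holds 2 cores, which begin 208 and 181 bases before the start site. The stretch of Slc2a1, at chr4:119108525-119108744 on the plus strand, has 2 cores at 61 and 36 bases before the start, and that of Pgk1, at chrX:106186880-106187099 on the plus strand, has 2 at 150 and 131 bases. The stretches of Tpi1 (chr6:124814159-124814378, minus strand) and Gys1 (chr7:45434619-45434838, plus strand) hold 0 cores, which says only that these letters are not in this stretch.

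Over the full windows of 300 bases (250 before to 50 after the start), 37 of the 38 genes were matched to 53 windows, and Slc2a3 was not matched. A core stood in 42 of these windows (79.2%), against 8562 of 13944 windows (61.4%) of all tested genes with a window. The core ACGTG alone was in 49.1% of the members' windows and in 25.1% of all windows. This core also lies within the E-box CACGTG, a site of MYC, which was found in 11.3% and 10% of windows respectively. Members that passed the test had a core in 13 of 18 windows (72.2%) and those that did not pass had one in 29 of 35 windows (82.9%). These matches describe letters in the promoters, and binding was not measured.

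The libraries held between 13771642 and 15608803 counts, with 17222 to 17422 genes detected. The targeted gene Smarca1 had 620 and 626 counts in WT against 37 and 31 counts in the knockout, a log2 fold change (log2(FC)) of -4.30, so that every library matched its label. All 10 ESC markers examined were expressed. Klf4 (0.34) and Tbx3 (0.67) passed as higher and Zfp42 (-0.60), on chromosome 8, as lower, where 4.0% of all tested genes were called higher and 5.21% lower. The 10 markers had summed levels of 4606 and 4843 CPM (counts scaled to an equal library size) in WT against 5002 and 5015 CPM in the knockout. The 38 members took 0.927% and 0.969% of all counts in WT against 1.13% and 1.19% in the knockout. In bulk RNA a change in the number of cells of a kind and a change of RNA per cell cannot be told apart.

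Among the 38 genes, 12 were higher in the knockout at an adjusted p-value under 0.05 (31.6%), 0 were lower and 26 did not pass. In edgeR's quasi-likelihood test of all 13840 genes, 4.0% were called higher and 5.21% lower, and because the members were selected on this contrast nothing is read from the difference between these shares. At an unadjusted p-value under 0.05, 18 members were higher and 1 was lower in edgeR, where 10.6% of all tested genes were higher and 11.5% lower. In DESeq2 16 were higher and 0 lower, where 6.23% of all tested genes were higher and 7.36% lower. Both knockout libraries lay above both WT libraries for 24 members, below for 2 (Eno2 and Slc16a1), and the genotypes overlapped for 12. Of all tested genes, 25.2% had both knockout libraries above and 25.3% had both below.

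Most differences were small. The median log2(FC) of the members was 0.21, with a range from -0.30 (Pygl) to 1.01 (Pgm1), against a median of 0.0002 over all tested genes. The log2(FC) was positive for 32 members and negative for 6. When each knockout library was set against each WT library (4 pairs), the median difference of the members was between 0.16 and 0.25 on the log2 scale, with 30 to 34 of 38 genes higher in the knockout library. Replicates of a genotype also differed, by a median of 0.07 in WT and 0.09 in the knockout. At the threshold used in the study for differentially expressed genes (DEGs, adjusted p-value under 0.01 and a change of over 2-fold) the set held 1 gene, Pgm1, and 0.571% of all tested genes were higher DEGs.

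The number of members that passed depended on which library was left out. Without WT replicate 1 it was 3 (Aldoa, Tpi1 and Pgm1), where 2.24% of all tested genes were higher, and without WT replicate 2 it was 6, where 2.36% were higher. Without knockout replicate 2 it was 9 beside 4.34% of all tested genes, and without knockout replicate 1 it was 14 beside 5.79%. With all libraries it was 12 beside 4.0%. Against that fit, leaving out knockout replicate 2 lowered the count but not the share of all genes called higher. All 12 genes kept a positive log2(FC) in each fit with a library left out. In such a fit the remaining library of a genotype is assumed to vary like the pair of the other genotype.

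**Figure D1:**
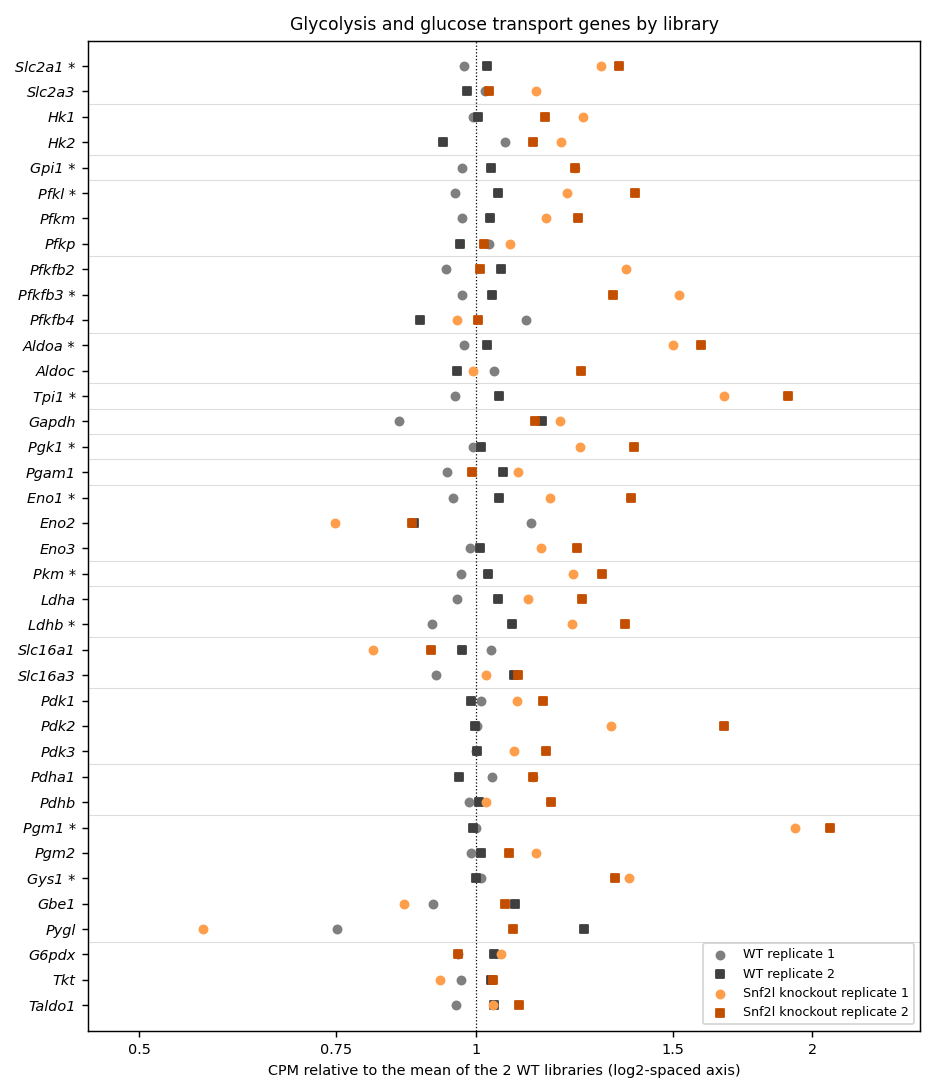
Level of each of the 38 genes in the 4 libraries, as CPM relative to the mean of the 2 WT libraries on a log2-spaced axis, with WT in grey and the knockout in orange and genes ordered by step. An asterisk marks the 12 genes that passed the test, whose knockout points lie to the right of both WT points, and 12 other genes have overlapping genotypes.

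The set holds 2 facilitative glucose transporters, through which the sugar enters the cell. Slc2a1, which encodes the widely expressed transporter GLUT1 (Entrez gene 20525, chr4:119108745-119137330), had 4371 and 5160 counts in WT against 6685 and 6799 counts in the knockout. Both knockout libraries were above both WT libraries, and the level rose from 329 ± 11 to 434 ± 11.6 CPM (SD over the 2 libraries, here and below), with a log2(FC) of 0.40 (SE 0.083). Slc2a3, which encodes the high-affinity transporter GLUT3, was the more abundant per length of transcript, with a mean of 473 TPM (the count per length of gene, scaled to the same sum in each library) in WT against 350 TPM for Slc2a1. It had 12746 and 13804 counts in WT against 16313 and 14513 in the knockout, a log2(FC) of 0.11 that did not pass. The knockout libraries were the higher ones, although at 944 CPM knockout replicate 2 was close to the 936 CPM of WT replicate 1. Slc2a1 thereby made up 41.5% and 43.6% of the summed TPM of both transporters in WT against 45.9% and 49.2% in the knockout.

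Hexokinases phosphorylate glucose on entry. Hk2, the inducible isozyme, supplied 89.3 ± 0.939% of the hexokinase TPM in WT and 89.1 ± 0.133% in the knockout (SD, n = 2 each). Its counts were 4643 and 4597 in WT against 6008 and 5555 in the knockout, and those of Hk1 were 737 and 839 against 1064 and 965. For both genes the knockout libraries were above the WT libraries, and neither passed the test, with log2(FC) of 0.22 (SE 0.090) for Hk2 and 0.26 (SE 0.097) for Hk1. Gpi1, whose product converts glucose-6-phosphate to fructose-6-phosphate (Entrez gene 14751, chr7:34201327-34230336), had 5572 and 6647 counts in WT against 8099 and 7952 in the knockout. It rose from 421 ± 17.2 to 517 ± 0.878 CPM, a log2(FC) of 0.29 (SE 0.082), and the knockout libraries were nearly equal at 516 and 517 CPM.

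Phosphofructokinase catalyses the committed step, and its subunits come from 3 genes. Pfkl, the liver type (Entrez gene 18641, chr10:77986947-78009807), had 2827 and 3473 counts in WT against 4116 and 4628 in the knockout, and rose from 217 ± 13.4 to 282 ± 27.4 CPM (log2(FC) 0.38, SE 0.095). The muscle type Pfkm had 735 and 878 counts against 1007 and 1056 (log2(FC) 0.26, not passing), and the platelet type Pfkp had 3105 and 3296 against 3740 and 3470 (log2(FC) 0.07, not passing, with overlapping CPM). The share of Pfkl in the step was 58.3 ± 1.49% in WT and 61.8 ± 2.12% in the knockout, and that of Pfkp was 20.8 ± 1.61% and 17.8 ± 1.81%. These shares came from levels per kb of the deposited gene length, and the deposited length of Pfkp, 13401 bp, is long beside the 4672 bp of Pfkl. In CPM, without gene length, Pfkp made up 44.8 ± 2.45% and Pfkl 43.9 ± 2.13% of the step in WT, and Pfkp was the higher one in WT replicate 1 (46.6% against 42.4%), so that their order in WT depends on the length.

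The PFKFB enzymes make and remove fructose-2,6-bisphosphate, the main allosteric activator of phosphofructokinase. Pfkfb3 (Entrez gene 170768, chr2:11471430-11554071), the form with the strongest kinase activity, had 240 and 286 counts in WT against 432 and 369 in the knockout. Its level rose from 18.1 ± 0.728 to 25.8 ± 2.49 CPM, a 1.42-fold difference (log2(FC) 0.51, SE 0.122). Pfkfb2 had 124 and 157 counts against 207 and 150, and only knockout replicate 1 was above both WT libraries. Pfkfb4 was at 39 to 44 counts in every library, with a log2(FC) of -0.02 (SE 0.233). Of the PFKFB genes, Pfkfb3 alone passed.

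The largest rises among the glycolytic enzymes were at the steps that split the sugar. Aldolase cleaves fructose-1,6-bisphosphate, and Aldoa (Entrez gene 11674, chr7:126795234-126800994) had 10622 and 12539 counts in WT against 18757 and 19588 in the knockout. The lower knockout library, at 1200 CPM, was well above the higher WT library, at 818 CPM. The level rose 1.55-fold, from 799 ± 26.7 to 1240 ± 55.9 CPM (log2(FC) 0.63, SE 0.080). Aldoc, an isozyme known mainly from brain, had 116 and 121 counts against 128 and 157 and overlapping genotypes in CPM, and Aldoa made up 99.1 ± 0.0787% of the aldolase TPM in WT and 99.3 ± 0.0741% in the knockout. Triosephosphate isomerase interconverts both trioses made by aldolase. Its gene Tpi1 (Entrez gene 21991, chr6:124810586-124814158) had 2145 and 2646 counts in WT against 4322 and 4819 in the knockout. This was a 1.78-fold rise, from 165 ± 10.6 to 295 ± 26.9 CPM (log2(FC) 0.83, SE 0.095), the largest in the 10 enzyme steps.

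In the later steps, which yield ATP and pyruvate, 3 genes passed. Pgk1, encoding phosphoglycerate kinase (Entrez gene 18655, chrX:106187100-106203699), had 2420 and 2775 counts in WT against 3490 and 3805 in the knockout, and rose from 179 ± 2.32 to 235 ± 17.8 CPM (log2(FC) 0.39, SE 0.090). Eno1, the main enolase (Entrez gene 13806, chr4:150236708-150248879), had 3468 and 4288 counts against 4877 and 5663, and rose from 267 ± 17.7 to 340 ± 40.8 CPM (log2(FC) 0.35, SE 0.098). The call of Eno1 was lost in 5 of 13 alternatives, and its log2(FC) was 0.22 without knockout replicate 2 (adjusted p = 0.223 in edgeR) and 0.47 without knockout replicate 1. Pkm, encoding pyruvate kinase (Entrez gene 18746, chr9:59656576-59679372), was the most abundant member, with 26707 and 31793 counts in WT against 38822 and 40271 in the knockout. It rose from 2020 ± 79.4 to 2550 ± 103 CPM (log2(FC) 0.34, SE 0.077). In each of the 3 genes both knockout libraries were above both WT libraries. The table counts whole genes, so the alternative exons that distinguish the PKM1 and PKM2 isoforms were not resolved.

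Further genes of these steps did not pass. Gapdh, encoding glyceraldehyde-3-phosphate dehydrogenase, had only 189 and 286 counts in WT against 305 and 283 in the knockout, and the genotypes overlapped (log2(FC) 0.21, SE 0.144). Its estimate was 0.02 without WT replicate 1 and 0.45 without WT replicate 2. Pgam1, encoding phosphoglycerate mutase, had 1536 and 1944 counts against 2059 and 1835, also with overlap in CPM (log2(FC) 0.06, SE 0.097). Among the minor enolases, Eno3 had 451 and 518 counts against 601 and 634 (log2(FC) 0.25), and the neuronal form Eno2 had 52 and 46 against 40 and 46 (log2(FC) -0.29, SE 0.231). Eno2 was the only gene of the 10 steps with a negative log2(FC).

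**Figure D2:**
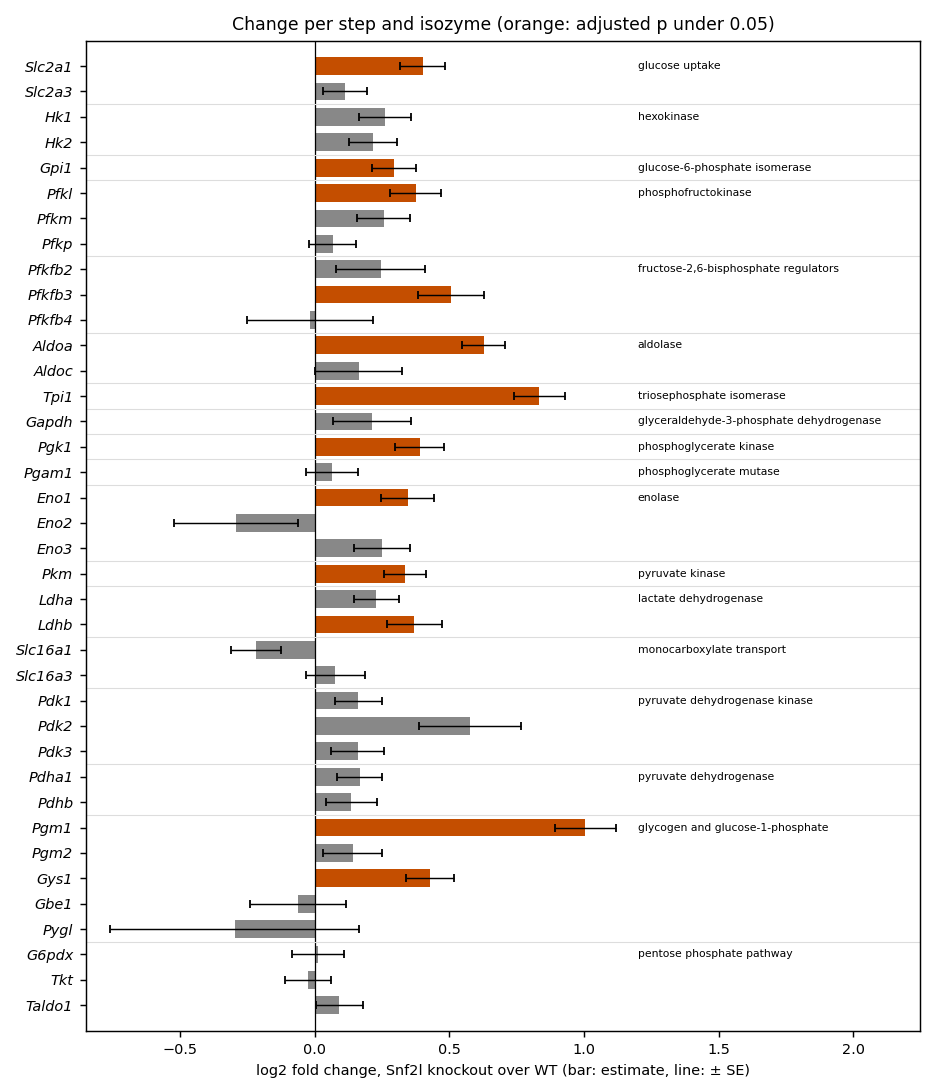
Log2(FC) of the knockout over WT for each of the 38 genes with its SE, ordered by step, with the 12 genes that passed the test in orange. The values run from -0.30 for Pygl to 1.01 for Pgm1, and Tpi1 at 0.83 and Aldoa at 0.63 are the next highest of those that passed.

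Summed by step, the TPM of the enzymes from hexokinase to pyruvate kinase was 4331 and 4445 in WT against 5813 and 5908 in the knockout, a ratio of means of 1.34. The ratio was highest for triosephosphate isomerase (1.77) and aldolase (1.53). It was between 1.22 and 1.30 for the isomerase, phosphofructokinase, phosphoglycerate kinase, enolase and pyruvate kinase steps, and 1.16 for the hexokinase and Gapdh steps. For phosphoglycerate mutase it was 1.04. The knockout libraries overlapped with the WT libraries for Gapdh and phosphoglycerate mutase and lay above them in the other steps. Of the 16 genes in the 10 steps, 7 passed, all higher, and 15 had a positive log2(FC), with a median of 0.26. Among the 22 members outside these steps 5 passed, and the median was 0.15. Of all 13840 tested genes 4.0% were called higher and 6924 had a positive log2(FC). The members were selected on this contrast, so these counts are a description.

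Lactate dehydrogenase reduces pyruvate to lactate, and its subunits are encoded by Ldha and Ldhb. Ldhb (Entrez gene 16832, chr6:142490249-142507957) had 1594 and 2120 counts in WT against 2453 and 2673 in the knockout, and rose from 128 ± 15 to 165 ± 12.4 CPM (log2(FC) 0.37, SE 0.102). Ldha, the second most abundant member per length with a mean of 1200 TPM in WT, had 13918 and 16964 counts against 18491 and 20237. Its knockout libraries were also the higher ones, but the log2(FC) of 0.23 (SE 0.085) did not pass. Ldhb supplied 19.4% and 20.9% of the step in WT against 21.9% and 21.8% in the knockout.

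The transporters that export lactate had other values than the enzymes. Slc16a1, encoding the lactate transporter MCT1, had 3026 and 3198 counts in WT against 2724 and 3019 in the knockout, with levels of 222 and 209 CPM against 174 and 196 CPM. The knockout libraries were the lower ones, and the log2(FC) of -0.22 (SE 0.093) did not pass. Slc16a3, encoding MCT4, the form known from strongly glycolytic cells, had 554 and 732 counts against 708 and 741 and overlapping genotypes in CPM (log2(FC) 0.08, SE 0.109). The summed TPM of both transporters was 218 and 207 in WT against 181 and 194 in the knockout, a ratio of 0.882. It was the only one of the 18 steps and groups examined in which the knockout libraries were below the WT libraries. Emb encodes embigin, an accessory protein of monocarboxylate transporters, and is not a member. It was lower, with 2479 and 2827 counts in WT against 2352 and 2280 in the knockout (log2(FC) -0.30, SE 0.086, adjusted p = 0.0431 in edgeR). Bsg, which encodes the accessory protein basigin, was at a log2(FC) of 0.02 (SE 0.089).

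At the entry to the mitochondria, the pyruvate dehydrogenase kinases inhibit the pyruvate dehydrogenase complex, whose catalytic subunits are encoded by Pdha1 and Pdhb. The 5 members of this group did not pass. Pdk1, the most abundant kinase, had 2618 and 2881 counts in WT against 3250 and 3355 in the knockout (log2(FC) 0.16), and Pdk3 had 596 and 673 against 743 and 777 (log2(FC) 0.16). Pdk2 had the largest estimate of the genes that did not pass, 0.58 (SE 0.189), from 58 and 65 counts in WT against 88 and 109 in the knockout. Its share in the TPM of the kinases was 3.13 ± 0.0163% in WT and 4.13 ± 0.494% in the knockout. Pdha1 had 4973 and 5229 counts against 6222 and 6094, and Pdhb had 1842 and 2119 against 2199 and 2466, with log2(FC) of 0.17 and 0.14. For all 5 genes the knockout libraries were above the WT libraries in CPM.

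**Figure D3:**
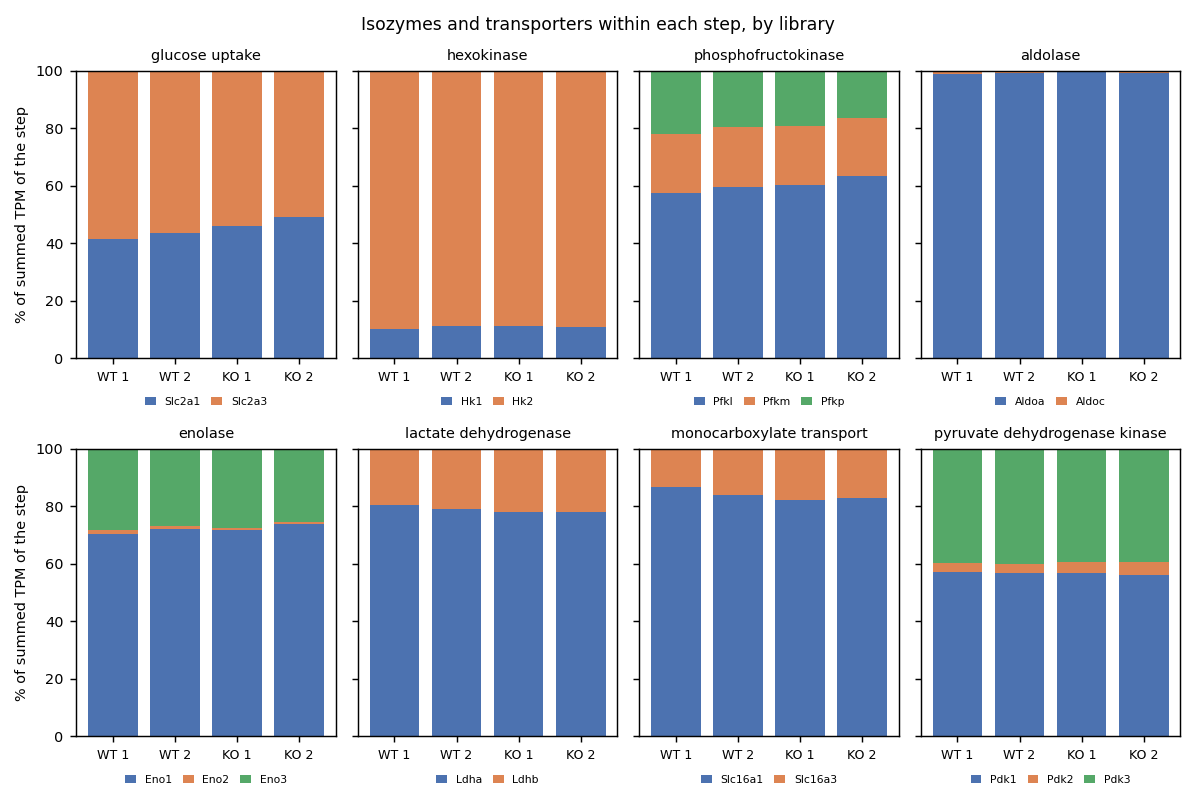
Share of each isozyme or transporter in the summed TPM of its step, in percent, for the 4 libraries (KO, knockout). Per deposited gene length, the form with the highest share was the same in all 4 libraries for each step shown, although without gene length Pfkp was above Pfkl in WT replicate 1. The share of Slc2a1 went from 41.5% and 43.6% in WT to 45.9% and 49.2% in the knockout.

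Among the genes of glycogen turnover, Pgm1 had the largest change of the set. Its product interconverts glucose-6-phosphate and glucose-1-phosphate and so links glycolysis and glycogen. Pgm1 (Entrez gene 72157, chr4:99929451-99987294) had 232 and 259 counts in WT against 515 and 543 in the knockout. It rose 2.01-fold, from 17 ± 0.103 to 34.1 ± 1.77 CPM (log2(FC) 1.01, SE 0.114), and passed the DEG threshold by a narrow margin. With WT replicate 2 or knockout replicate 2 left out its log2(FC) was 0.998 and 0.952, below that threshold, although its adjusted p-value still passed in both fits. Pgm2 (Entrez gene 66681) is a related gene whose name has been exchanged with that of Pgm1 in earlier nomenclature. It had 377 and 434 counts against 498 and 461 (log2(FC) 0.14, not passing), so that Pgm1 went from 14.7 ± 0.207% to 21.7 ± 1.27% of the summed TPM of the 5 glycogen genes.

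Gys1, encoding glycogen synthase of muscle and most other tissues (Entrez gene 14936, chr7:45434839-45456617), had 1396 and 1568 counts in WT against 2203 and 2083 in the knockout. The WT libraries were nearly equal at 103 and 102 CPM, and the level rose from 102 ± 0.177 to 138 ± 3.44 CPM (log2(FC) 0.43, SE 0.089). The branching enzyme gene Gbe1 had 81 and 108 counts against 88 and 106, and the liver phosphorylase gene Pygl, which encodes an enzyme of glycogen breakdown, had 7 to 15 counts in all libraries. Both had overlapping genotypes and estimates of -0.06 (SE 0.178) and -0.30 (SE 0.464), and at this depth no change of Pygl could be detected or bounded closely.

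The 3 members of the pentose phosphate pathway did not pass and had log2(FC) near 0. G6pdx, encoding the dehydrogenase of the first step of the branch, had 1185 and 1437 counts in WT against 1493 and 1340 in the knockout (log2(FC) 0.01, SE 0.096). Tkt, encoding transketolase, had 9015 and 10786 against 9956 and 10865 (log2(FC) -0.03, SE 0.085), and Taldo1, encoding transaldolase, had 3345 and 4070 against 4159 and 4299 (log2(FC) 0.09, SE 0.087). All 3 had overlapping genotypes in CPM, and their summed TPM was 892 and 935 in WT against 926 and 939 in the knockout. The standard errors of Tkt and Taldo1 were close to that of Ldha, so that the precision of these values was similar.

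Within the set, the order of levels per length in WT was led by Pkm, Ldha and Aldoa, with means of 1500, 1200 and 1020 TPM. Slc2a3 (473 TPM), Taldo1 (439 TPM) and Tkt (366 TPM) followed. Pdha1, at 369 and 337 TPM, overlapped in WT with Tkt (359 and 372 TPM) and with Slc2a1 (346 and 354 TPM) and cannot be ordered against either, and the same holds for Ldhb (281 and 325 TPM) and Pgk1 (299 and 297 TPM). At the low end stood Eno2 (2.7 TPM), Pfkfb4 (2.61 TPM) and Pygl (0.76 TPM), of which Eno2 and Pfkfb4 overlapped. In the knockout Aldoa, with 1560 and 1590 TPM, was above both values of Ldha, 1350 and 1440 TPM, whereas in WT it was below both. Without gene length the knockout values overlapped, with 1200 and 1270 CPM for Aldoa and 1180 and 1320 CPM for Ldha. Their order in the knockout therefore depends on the length.

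Levels were high in most members, and their values were also set beside genes of similar abundance or length. The members were selected on this contrast, so these values are a description. Abundance or length as a cause was not tested. Of the 21 members with at least 100 CPM on average, 10 passed, all higher, and 16 had both knockout libraries above both WT libraries, with a median log2(FC) of 0.23. Among all 2540 tested genes at this level 3.39% were called higher and 21.5% had both knockout libraries above, and their median was -0.01. When genes were divided by length into 4 classes of about equal size, the median of all tested genes went from 0.04 in the shortest to -0.04 in the longest class, while that of the members lay between 0.20 and 0.22 in each class. By position, 0 members lay on chromosome 8, on which the median log2(FC) of all tested genes was -0.51. On chromosome Y, also with 0 members, the median of the 6 tested genes was -4.57. The cause of these chromosome-wide differences was not tested. Chromosome X held 4 members, of which Pgk1 passed. Chromosomes 6 and 7 carried 6 and 5 members, and all 3 members on chromosome 4 passed (Slc2a1, Eno1 and Pgm1), a chromosome whose median was 0.03.

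Several members have processed pseudogenes or overlapping neighbours, with which reads can be shared. Each gene's annotated transcripts were therefore cut into stretches of 50 bases and searched in the transcripts of all other genes of the GENCODE M21 annotation. Gapdh shared 58.4% of its stretches with 222 other genes, 209 of them pseudogenes. Its mean in WT was 23.6 TPM, and its count is uncertain. The 20.4 and 26.8 TPM of Gapdh in WT overlapped with Hk1 (23.9 and 23.6 TPM) and Pgm1 (22 and 21.3 TPM). It cannot be ordered against either. The part of shared sequence in this level was not tested.

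The corresponding share was 68% for Pgk1 (5 pseudogenes), 49.5% for Eno1 and 41.5% for Pgam1. Of the 1428 shared stretches of Eno1, 1395 are in Eno1b, an intronless copy listed as a gene of its own, which had 780 and 1009 counts in WT against 1206 and 1388 in the knockout and was also higher (log2(FC) 0.44, SE 0.108, adjusted p = 0.0177 in edgeR). The share was 24.5% for Gpi1, 23.7% for Pkm and 21% for Ldhb. For the genes with the largest rises it was lower, at 12.2% for Pgm1, 6.83% for Tpi1 and 6.57% for Aldoa. The shared part of Pgm1 belongs to a transcript of Itgb3bp, which had 184 and 248 counts in WT against 264 and 239 in the knockout and did not pass (log2(FC) 0.12). Gys1 shared 6.24% with its neighbour Ruvbl2 (log2(FC) 0.26, not passing). Slc2a1 shared 1.56%, Pfkfb3 0.53% and Pfkl 0.0532%. The strand setting of the counting is not given in the sources used here, so reads of overlapping genes on opposite strands cannot be told apart.

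**Figure D4:**
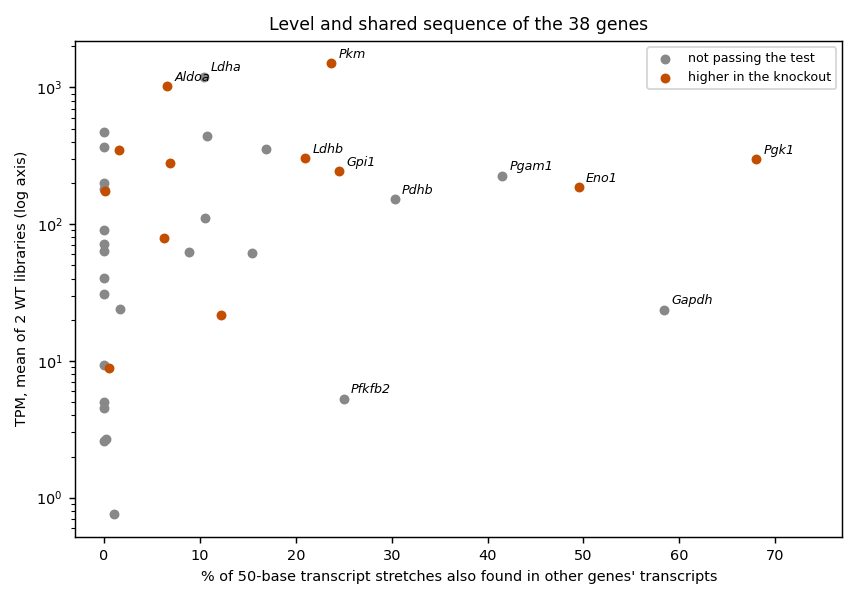
Share of 50-base transcript stretches of each member that also occur in transcripts of other genes (x axis, percent) against its mean TPM in the 2 WT libraries (log axis), with genes that passed the test in orange. Gapdh stands at 58.4% and 23.6 TPM, far below Pgk1, which shares 68% and has a mean of 298 TPM.

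Other genes of glucose metabolism were taken from lists of functions next to the members. Beside the counts below, 4.0% of all 13840 tested genes were called higher and 5.21% lower. Of 25 tested further isozymes and transporters, 2 were higher and 1 was lower, with a median log2(FC) of -0.10. These were the enolase-related genes Eno4 (0.79, SE 0.229, from 28 and 33 counts in WT to 59 and 54) and Eno1b, and the lower gene was Emb. In the remaining pyruvate dehydrogenase complex and mitochondrial pyruvate entry list 2 of 10 genes passed, both lower, and the median was -0.08. The lower genes, Pdpr, a regulatory subunit of pyruvate dehydrogenase phosphatase (-0.85, SE 0.159), and Pdp2, a catalytic subunit (-0.57, SE 0.110), lie on chromosome 8. On this chromosome 453 of 754 tested genes were called lower.

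Of 21 genes of the tricarboxylic acid cycle, 1 was higher, Idh2, which encodes the mitochondrial NADP-dependent isocitrate dehydrogenase (0.45, SE 0.107), and the median was 0.05. Among 24 further genes of glycogen and gluconeogenesis, Pck2, encoding mitochondrial phosphoenolpyruvate carboxykinase, was higher (0.76, SE 0.096, from 735 and 890 to 1435 and 1516 counts) and the phosphorylase kinase subunit gene Phkb on chromosome 8 was lower (-0.38, SE 0.097). Of 11 further genes of the pentose phosphate pathway, Rbks (0.99, SE 0.242) and Prps2 (0.37, SE 0.093) were higher and Tktl2 on chromosome 8 was lower (-1.43, SE 0.322). Of 30 genes of side branches such as serine and hexosamine synthesis, 1 passed, Got2 on chromosome 8, which was lower (-0.49, SE 0.090). The medians of the last 3 of these lists were 0.0002, 0.09 and 0.0006. The share called higher was 4.76% in the tricarboxylic acid cycle list and 4.17%, 18.2% and 0% in these 3. Of all tested genes 4.0% were called higher and 5.21% lower.

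A further list held genes that are known to be induced by low oxygen and are not members. Over all 13840 tested genes, edgeR called 4.0% higher, and before adjustment 10.6% were higher and 11.5% lower at the 0.05 level. Of the 24 tested genes of this list, 8 passed, all higher, and 13 had an unadjusted p-value under 0.05, with a median of 0.27. Those with the largest log2(FC) among them were Bnip3, a gene of mitophagy, with 114 and 134 counts in WT against 422 and 383 in the knockout (1.60, SE 0.131), Anxa2 (1.29, SE 0.122) and Ddit4, an inhibitor of mTORC1 (0.77, SE 0.108). Bnip3 and Anxa2 were DEGs. The list was written with earlier results of these libraries known, so it is not independent support for a direction.

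Among 30 tested regulators of glycolytic genes, 1 was higher and 2 were lower, with a median of 0.01. The shares over all tested genes were 4.0% higher and 5.21% lower. Egln3, which encodes a HIF prolyl hydroxylase and is itself induced by HIFs, was higher (0.77, SE 0.126, from 205 and 207 to 362 and 393 counts). Arnt2, a dimerization partner of HIF subunits (-0.71, SE 0.213), and the RNA-binding protein gene Lin28b (-0.54, SE 0.104) were lower. Hif1a had 2679 and 2645 counts in WT against 2599 and 2371 in the knockout (-0.21, SE 0.095), Epas1, encoding HIF-2α, had 635 and 655 against 938 and 805 (0.33, SE 0.106), and Myc had 1449 and 1692 against 2060 and 2041 (0.28, SE 0.089). These 3 did not pass, and protein levels or the activity of these factors were not measured.

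**Figure D5:**
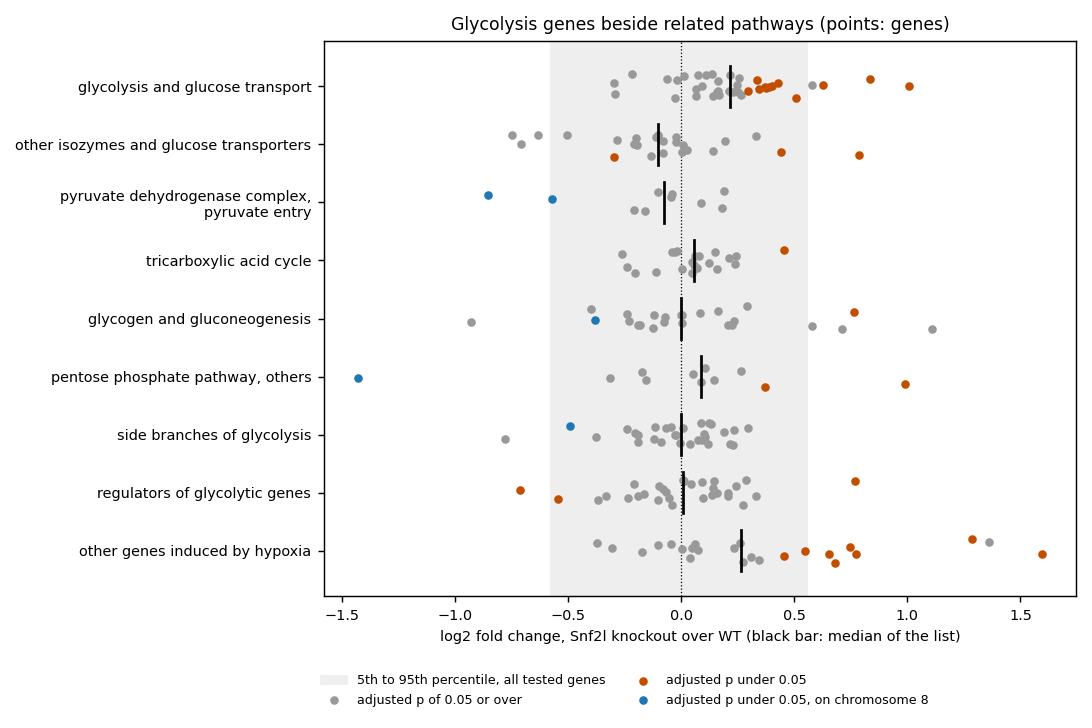
Log2(FC) of the knockout over WT for each tested gene of the set and of 8 related lists, with the median of each list as a black bar and the 5th to 95th percentile of all tested genes in grey. The medians of the glycolysis genes (0.21) and of the other hypoxia-induced genes (0.27) lie to the right of the other lists, which are between -0.10 and 0.09.

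Markers of other cell types also differed between the genotypes. The 6 tested of 10 fibroblast and feeder markers summed to 39.38 and 39.54 CPM in WT against 63.93 and 64.49 CPM in the knockout. Most of this was Fbln1, at 26 and 28.4 CPM in WT against 38.9 and 38.8 CPM in the knockout. All 6 had both knockout libraries above both WT libraries (25.2% of all tested genes did), 3 of them passing. Those passing were the collagen genes Col1a1, with 77 and 69 counts in WT against 207 and 211 in the knockout (log2(FC) 1.41), and Col3a1, with 4 and 8 against 29 and 42 (log2(FC) 2.44), both of them DEGs, and Fbln1 (log2(FC) 0.51). Postn, Thy1 and Col1a2 had log2(FC) of 1.51, 0.46 and 0.38 and did not pass. The other 4 markers were too low to be tested, with Lum at 0 counts in all 4 libraries, Dcn at 0 to 2, Prrx1 at 0 in WT against 4 and 2, and Twist2 at 1 to 9. The 7 tested of 10 primitive endoderm markers summed to 21.74 and 19.64 CPM in WT against 35.12 and 30.71 CPM in the knockout. Their log2(FC) was positive in all 7, as it was in 6924 of all 13840 tested genes. Amn (1.30), Gata6 (1.23), Gata4 (0.75) and Dab2 (0.51) passed. Amn had 9 and 12 counts in WT against 30 and 26 in the knockout, and Gata6 14 and 16 against 31 and 45. Sox17 (0.92), Cubn (0.69) and Sox7 (0.34) did not pass, and the genotypes overlapped for Cubn and Sox7. Over all tested genes 4.0% were called higher and 5.21% lower. Of the 3 markers that were too low to be tested, Afp was at 0 in all libraries, Ttr at 0 to 1 and Foxa2 at 2 to 7. Of 9 tested markers of primed epiblast and differentiation, 1 was higher, Pou3f1 (0.73). The 2 lower ones were Nes (-1.06) and Pax6 (-1.18), both of them DEGs. Cdx2 (1.05), Otx2 (0.13), Fgf5 (0.04), Dnmt3b (0.04), Mixl1 (0.01) and Eomes (-0.21) did not pass, and T, at 3 to 4 counts, was too low to be tested. The part of such cells in the differences of the glycolysis genes was not tested.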

How the data were processed

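The authors deposited read counts per gene of 4 poly(A) RNA-seq libraries, made by alignment to mm10 with QuasR and HISAT2 and counting over UCSC Known Genes with 1 row per Entrez gene. The labels name a stranded library kit and the study's methods another kit, and the strand setting of counting is not given in the sources used here. The submitters' processing notes also name bcl2fastq 2.17. The deposited table also gives a gene length, another column that was used for TPM. Of 24594 genes, 24570 (99.9%) were matched by Entrez identifier to RefSeq symbols and positions on GRCm38, the assembly of mm10.

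Counts were tested in R 4.3.3 with edgeR 4.0.16 (filterByExpr with a minimum count of 10, TMM, legacy glmQLFit and glmQLFTest, genotype as the only term, two-sided), with Benjamini-Hochberg adjustment over the 13840 genes tested. The SE is the absolute log2(FC) divided by the square root of the F statistic. CPM were scaled by TMM factors. TPM is the count per kb of the deposited length, scaled to the same sum in each library. Replicates differed by more than sampling noise (chi-square per degree of freedom 5.5 for WT and 7.87 for the knockout), and the common biological coefficient of variation was 7.45%. The procedure was tested on simulated counts with changes larger than that of any member. Detection of smaller changes was not tested there.

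The members, the 8 lists of related genes, the 4 marker lists and the tests were chosen with earlier results of these data known. Named genes are all members, Smarca1 and, from each list of related genes, the DEGs and the 3 genes with the largest absolute log2(FC) among those passing an adjusted p-value of 0.05. Bsg, Hif1a, Epas1, Myc, Itgb3bp, Ruvbl2, Klf4, Tbx3 and Zfp42 were named in addition, after their values were seen. The same holds for the markers of fibroblasts, primitive endoderm, primed epiblast and differentiation. Of 26 symbols of the hypoxia list, 25 were in the table. Alternatives were other scalings, filters and tools, DESeq2 1.42.0 among them, the replicate number as a block, and each library left out in turn.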

Additional observations from a re-analysis of the deposited data

How the results depend on the processing

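The number of members that passed, all higher, was 12 under RLE, upper-quartile and library-size scaling, with TMM factors computed without the members and chromosomes 8 and Y, with at least 10 counts in every library, and in the edgeR 4 fit. It was 10 with any gene of at least 1 count (without Eno1 and Ldhb, where 2.18% of all tested genes were higher) and 9 in DESeq2 (without Eno1, Gpi1 and Pfkfb3, where 300 of 13840 were higher). Leaving out 1 library gave 3 to 14, where 2.24% to 5.79% of all tested genes were higher. The number of DEGs was 1, and 0 with TMM factors computed without the members and chromosomes 8 and Y, where the log2(FC) of Pgm1 was 0.99. It was 0 to 1 with 1 library left out. The median log2(FC) of the members was between 0.19 and 0.25 in all alternatives. The 12 genes kept a positive log2(FC) in every alternative, and Aldoa, Tpi1 and Pgm1 passed in all 13.

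With the replicate number as a block, 20 members were higher and 1, Slc16a1, was lower, where 11.6% of all tested genes were higher. Deviations of same-numbered libraries correlated at 0.196, which for 2 pairs is no evidence of pairing. Upper-quartile scaling raised the share of higher genes among those called from 43.4% to 49.9%.

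Signs changed only in genes that did not pass. Under upper-quartile scaling Pfkfb4 was at 0.0126 and Tkt at 0.0053, and with TMM without the members and chromosomes 8 and Y G6pdx was at -0.0021. With 1 library left out the log2(FC) ranged from -0.1742 to 0.1389 for Pfkfb4, -0.0167 to 0.1499 for Pgam1, -0.0327 to 0.196 for Slc16a3, -0.0506 to 0.0741 for G6pdx, -0.2167 to 0.0828 for Gbe1, -0.8184 to 0.1291 for Pygl, -0.1056 to 0.0518 for Tkt and -0.006 to 0.3195 for Aldoc. The cause of these changes was not tested. Without gene length, the WT share of Slc2a1 in its step went from 42.5% to 26.4%, that of Pfkp from 20.8% to 44.8% and that of Ldhb from 20.2% to 10.7%. The 2 libraries per genotype and, for Pygl, Pfkfb4 and Eno2, counts of 52 or fewer limit the precision.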
